A study of Zea mays with 18 samples.

Results

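The upper and the lower leaf of maize plants in the stand titled low density were compared at grain filling. The 6 libraries of this comparison are LA replicates 1 to 3, from the third leaf above the ear, and LB replicates 1 to 3, from the third leaf below the ear, of 18 libraries in all. They were chosen by library title and not by any measured value. All plants were of the hybrid Xianyu 335. In the titles, L stands for low and H for high plant density, and A, E and B for the leaf above the ear, the ear leaf and the leaf below the ear. The LE libraries, from the ear leaf of the same stand, and the HA and HB libraries, from the upper and lower leaves of the high-density stand, were used beside them, with 3 libraries in each group. The titles and the treatment label disagree for LA: all 3 libraries carry the label of high plant density, while the LB libraries carry that of low density. If the treatment label were the right one, leaf position and density could not be told apart in LA against LB. The series was made to study how leaves at different nodes respond to crowding.

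A maize canopy is layered. Leaves above the ear are younger, stand in full light and feed much of the grain, while leaves below the ear are older, shaded and the first to export nitrogen and to senesce. In grasses, MADS-box transcription factors of the APETALA1/FRUITFULL branch and the small FT-like proteins made in leaves belong to the system that moves a shoot to flowering, and both remain transcribed in leaf blades. Nitrate reduction, C4 photosynthesis and the response to cytokinin, a hormone that delays senescence, are other properties in which leaf layers can differ.

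Each library gave RPKM values (reads normalised to gene length and to the mapped reads of the library) for 31855 gene models, of which 21184 had at least 1 RPKM in at least 3 of the 18 libraries and were tested. The files hold no counts. The relative depth read from the smallest values was 1.034, 1.098 and 0.967 in LA and 0.944, 0.931 and 0.93 in LB, and the absolute depth is unknown. The LA libraries correlated with each other at 0.976 to 0.98 and with the HA libraries at 0.97 to 0.982, so LA was as near to the upper leaf of the other stand as to itself. LB replicate 2 stood apart. It correlated with LB replicates 1 and 3 at 0.954 to 0.957, while these correlated with each other at 0.983, and it was nearer to an ear-leaf library, LE replicate 2, at 0.966. Leaf markers were high in all 6 libraries. The 4 mesophyll markers (pep1, C4ppdkZm1, mdh6 and CA) summed to 10519.6 to 14040.3 RPKM in LA and 6393.5 to 12244.7 RPKM in LB, the lowest sum being that of LB replicate 2. The 10 seed storage markers summed to at most 1.62 RPKM in LA and 1.12 RPKM in LB, and bz15 was listed at 0 in all 6. Nothing in the labels tells if replicates are different plants. The p-values therefore describe the spread among libraries, which may be technical. That spread was pooled over all 18 libraries and not taken from the 6 of LA and LB alone. It was widest in LB, with a median SD on the log2 scale of 0.246, against 0.133 to 0.188 in the other groups. With 3 libraries a side, the smallest p of an exact permutation test is 0.1. Tissue was bulk leaf, in which fewer cells of a type and less RNA per cell cannot be told apart.

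Of the 21184 genes tested, 2010 (9.49%) differed between LA and LB at an adjusted p under 0.05 in limma. In LA, 1047 (4.94%) were higher and 963 (4.55%) were lower. Rises were larger than falls: 511 genes rose and 252 fell by at least 1 on the log2(RPKM + 0.5) scale, on which all differences here are given and which understates the change of weakly expressed genes. The count depended on single libraries. It was 926 without LB replicate 2 and 665 without LA replicate 1, and 554 genes were called whichever library was left out. Genes reported below as higher or lower belong to these 554 unless a library is named beside them. With LA and LB fitted alone, 430 genes were called. Some of the 554 were not called in that fit, as with PIF5 (adjusted p = 0.0836) and sod2 (adjusted p = 0.0903).

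**Figure D1:**
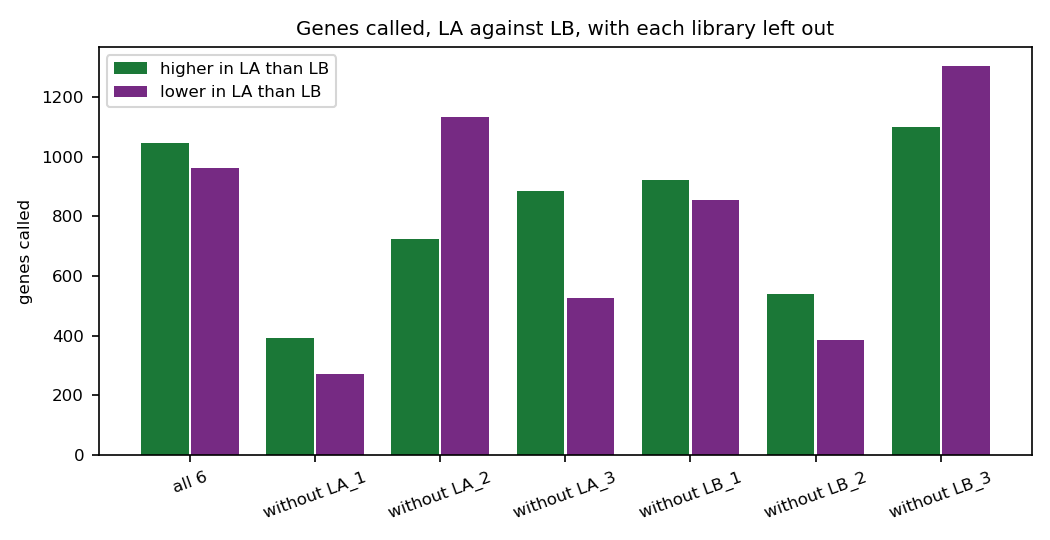
Bars give the number of genes called higher (green) and lower (purple) in LA than in LB, with all 6 libraries and with each left out in turn. The count is 2010 with all 6 libraries, 665 without LA replicate 1 and 926 without LB replicate 2.

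The largest named rises and falls of the canopy span were MADS-box genes. m15 (GRMZM2G553379), an APETALA1/FRUITFULL-like factor, had 52.2, 51.7 and 49.7 RPKM in LA, against 0.668, 0.677 and 0.606 RPKM in LB. The upper leaf was thus high in every library and the lower leaf was under 1 RPKM, a log2 difference of 5.49 ± 0.24 (SE, adjusted p = 1.18e-09). m4 (GRMZM2G032339), its close relative, which is known to promote the floral transition in maize, had 74.8, 78.2 and 85.4 RPKM in LA, against 3.01, 1.81 and 1.44 RPKM in LB (log2 difference 4.99 ± 0.30, adjusted p = 9.27e-08). zap1, an APETALA1-like gene, reached 9.77, 11.8 and 17.9 RPKM in LA and 2.21, 3.32 and 1.9 RPKM in LB, a log2 difference of 2.18 ± 0.27. The rise of m31 was one between low levels, with at most 0.898 RPKM in LA and 0.2 RPKM in LB (adjusted p = 0.00409).

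Other MADS-box genes ran the opposite way in the same leaves. m20 (GRMZM2G059102) had 7.9, 7.94 and 2.84 RPKM in LA, against 38.2, 40.8 and 37.5 RPKM in LB. It fell by 2.67 ± 0.25 on the log2 scale (adjusted p = 1.8e-05), and no library of one leaf reached the level of the other. m5 (GRMZM2G171365), which the gene table also lists as SOC1, a flowering integrator in Arabidopsis, had 3.29, 3.78 and 1.94 RPKM in LA and 17.4, 19.2 and 16.8 RPKM in LB, a fall of 2.42 ± 0.18 on the log2 scale (adjusted p = 9.98e-07). m21 had 0.814, 1.15 and 0.544 RPKM in LA and 7.86, 7.46 and 5.48 RPKM in LB (log2 difference -2.49 ± 0.27). ZAGL1 was lower at 21.3, 29.8 and 24.4 RPKM in LA, against 48.6, 47.3 and 56.5 RPKM in LB. Of 18 MADS-box genes tested, 4 rose and 5 fell, where 9.49% of all genes were called. The median difference of the list was -0.19, and that of all genes was -0.055. The remaining 9 lay between m19, at 47.2 to 54.5 RPKM in LA and 61.5 to 81.2 RPKM in LB (log2 difference -0.41, adjusted p = 0.0509), and m22, at a log2 difference of 0.57 (adjusted p = 0.099). Without LB replicate 2, 5 members rose and 4 fell, zmm2 being lost (adjusted p = 0.0552), as it was without LA replicate 1, and m22 added.

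FT-like genes of the leaf also differed along the canopy. ZCN8 (GRMZM2G179264), the maize florigen made in leaves, had 104, 78.5 and 99.3 RPKM in LA, against 29.1, 14 and 21.7 RPKM in LB. Every LA library lay above every LB library, with a log2 difference of 2.14 ± 0.29 (adjusted p = 0.000405). Its close relative ZCN7 (GRMZM2G141756) had 99.1, 82.2 and 115 RPKM in LA and 48.5, 38.6 and 33.4 RPKM in LB (log2 difference 1.29 ± 0.27, adjusted p = 0.00792). ZCN11 fell to 0.741 to 0.96 RPKM in LA, against 2.25 to 10.2 RPKM in LB (adjusted p = 0.0496), a call that rested on LB replicate 2 (adjusted p = 0.223 without it) and was lost without any LA library. ZCN14, ZCN18 and ZCN25 were not called. In all, 2 of 6 FT-like genes tested rose and 1 fell, where 9.49% of all genes were called.

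**Figure D2:**
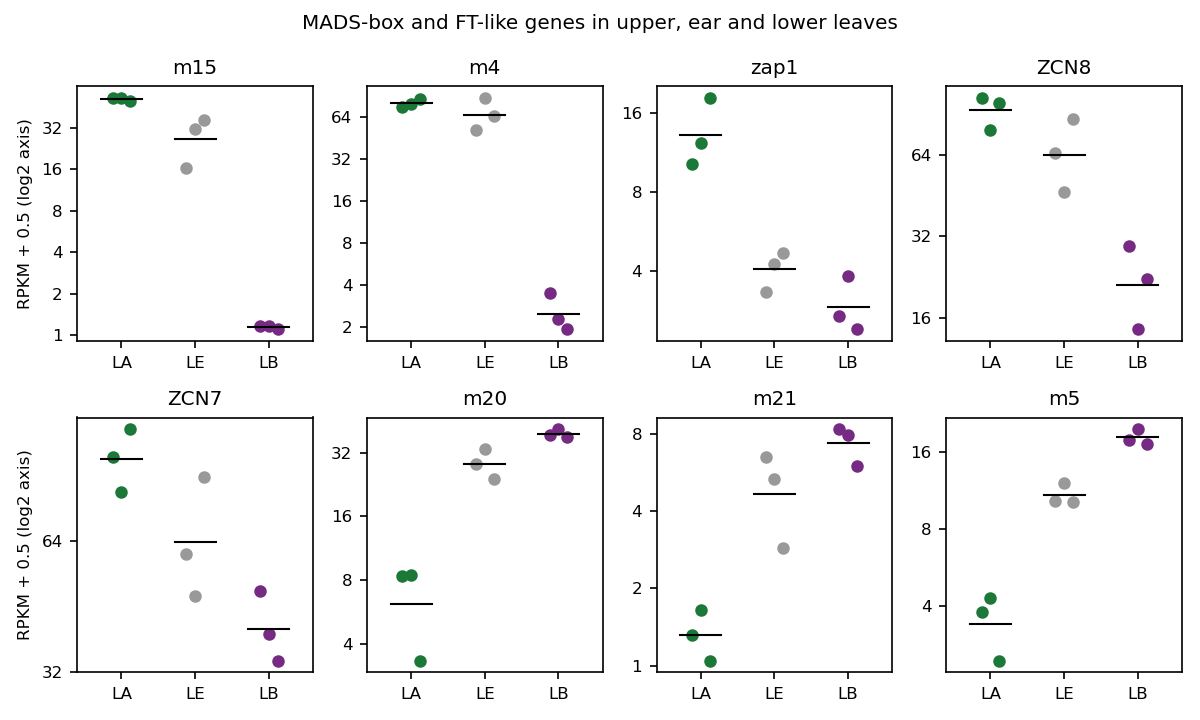
RPKM + 0.5 on a log2 axis in each library of the upper leaf (LA), ear leaf (LE) and lower leaf (LB) for 3 rising MADS-box genes, 2 FT-like genes and 3 falling MADS-box genes; points are libraries and bars the mean of the log values. LE lies nearer to LA than to LB for m15 and m4, with all LE libraries of m15 below LA, and nearer to LB for zap1 and m20.

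Genes of nitrate reduction were higher in the upper leaf. NNR1 (GRMZM2G568636), a nitrate reductase, the first step of nitrate use, had 54.2, 50.5 and 54.0 RPKM in LA, against 20.9, 13.9 and 18.9 RPKM in LB. The LA libraries were tight and well above LB (log2 difference 1.56 ± 0.16, adjusted p = 3.68e-05). NIR, the nitrite reductase of the next step, had 52.3, 32.9 and 36.0 RPKM in LA and 13.6, 10.7 and 16.4 RPKM in LB (log2 difference 1.53 ± 0.22, adjusted p = 0.00063). gdh1, a glutamate dehydrogenase that can release ammonium from amino acids, was lower, at 12.9, 11.9 and 14.1 RPKM in LA and 22.6, 26.5 and 18.9 RPKM in LB (log2 difference -0.78 ± 0.13). The asparagine synthetase gene AS was also lower (log2 difference -0.30), but its call was lost on leaving out any of 4 libraries, LA replicates 1 and 3 and LB replicates 1 and 2, with an adjusted p up to 0.164. The other 14 of 18 nitrogen genes tested were not called, where 9.49% of all genes were. Among the 14 was the glutamine synthetase gene gln1-3, at 219 to 241 RPKM in LA and 193 to 211 RPKM in LB (adjusted p = 0.363).

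Cytokinin genes were called in both directions. Several response regulators of the type that cytokinin induces and that dampen its signal were higher in the upper leaf. crr1 (GRMZM2G040736) had 55.7, 50.3 and 41.7 RPKM in LA, against 10.2, 3.95 and 5.62 RPKM in LB (log2 difference 2.90 ± 0.50, adjusted p = 0.00257). crr2 had 28.8, 23.3 and 30.3 RPKM in LA and 9.48, 6.92 and 8.77 RPKM in LB (adjusted p = 0.000693). RR7 had 83.5, 77.7 and 69.5 RPKM in LA and 42.0, 28.3 and 31.3 RPKM in LB (adjusted p = 0.00204). Of the 3 gene models named crr5, 2 rose as well, as did RR6, whose adjusted p of 0.0258 became 0.0921 without LB replicate 2 and was also lost without LA replicate 1 or 3, while RR4 was not called (log2 difference 0.41, adjusted p = 0.204). CKX5, a cytokinin oxidase that degrades the hormone, had 52.5, 39.7 and 23.5 RPKM in LA, against 11.8, 0.935 and 1.24 RPKM in LB. LB replicate 1 was the high one of its group, and the log2 difference was 3.57 ± 0.61 (adjusted p = 0.00224).

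With all libraries, the transcription-activating regulators RR9 and RR10, the receptors hk3 and HK1b2, and a second oxidase, cko3, were called lower in LA. cko3 had 6.34, 17.0 and 15.7 RPKM in LA and 29.2, 42.6 and 23.5 RPKM in LB (adjusted p = 0.0191). LB replicate 2 was the highest library of its group for cko3, RR9, RR10, hk3 and HK1b2, and none of these falls was called without it or without LA replicate 1. RR9, RR10, hk3 and HK1b2 were also lost without LA replicate 3. Of 30 cytokinin genes tested, 8 rose and 5 fell with all libraries, where 9.49% of all genes were called. Without LB replicate 2, 6 rose and 0 fell, where 926 genes in all were called and 4330 had an unadjusted p under 0.05. Without LA replicate 1 the counts were also 6 and 0, and without LA replicate 3 they were 7 and 1. Gene models named crr5 may share reads, which could not be examined here.

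**Figure D3:**
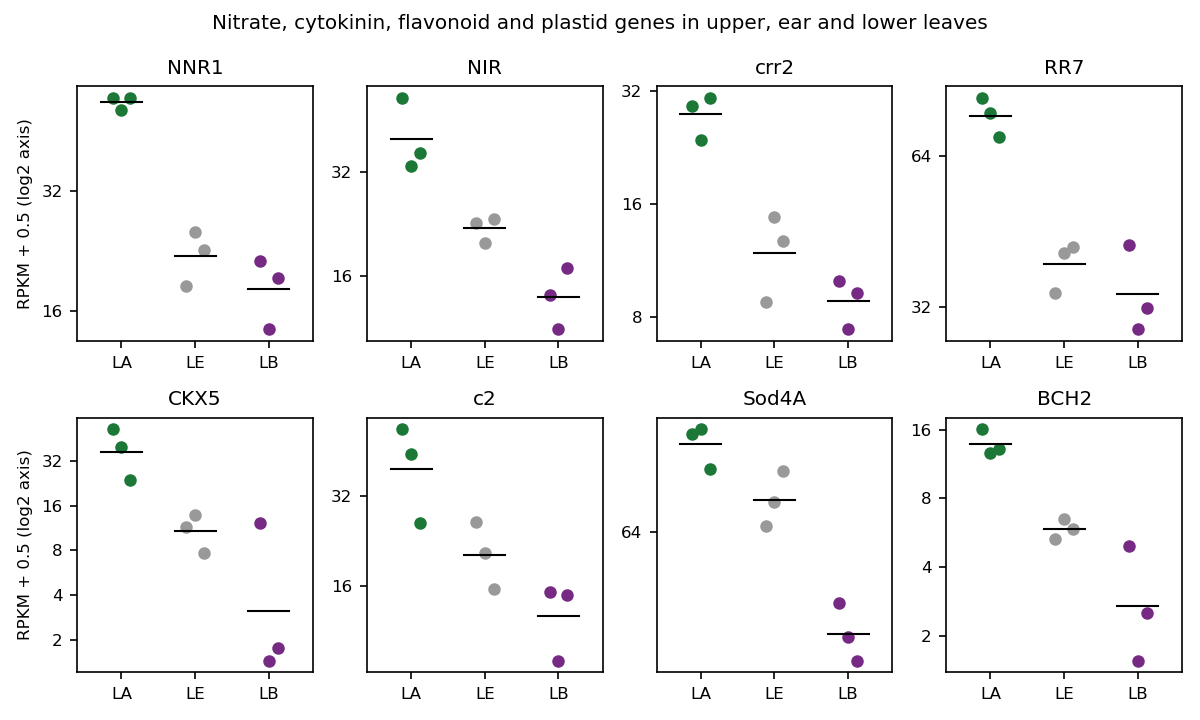
RPKM + 0.5 on a log2 axis in each library of LA, LE and LB for nitrate and nitrite reductase (NNR1, NIR), 3 cytokinin genes (crr2, RR7, CKX5), a chalcone synthase (c2), a superoxide dismutase (Sod4A) and a beta-carotene hydroxylase (BCH2); points are libraries and bars the mean of the log values. For these 8 genes every LA library lies above every LB library. All 8 were chosen among called genes, and 1013 of the 1047 genes called higher had no overlap. Of all genes tested, 12.0% were higher in LA without overlap.

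Some genes of flavonoid synthesis were higher in the upper leaf. whp (GRMZM2G151227), a chalcone synthase, the entry enzyme of the pathway, had 32.5, 12.6 and 11.7 RPKM in LA, against 1.16, 0.0327 and 0.589 RPKM in LB. LA replicate 1 was the highest, LB lay near or under 1 RPKM, and the log2 difference was 4.14 ± 0.67 (adjusted p = 0.00153). Its duplicate c2 had 52.6, 43.3 and 25.5 RPKM in LA and 14.8, 8.58 and 14.5 RPKM in LB (log2 difference 1.62 ± 0.36). That call was lost without LA replicate 1 (adjusted p = 0.074) or LB replicate 2 (adjusted p = 0.0628), and reads of the chalcone synthase pair may be divided between them. sm2, a rhamnosyltransferase of the silk flavone maysin, had 9.68, 5.49 and 3.72 RPKM in LA and 1.31, 0.0379 and 0.0758 RPKM in LB (adjusted p = 0.0036). UGT708A6, a flavone C-glucosyltransferase, had 2.13, 1.23 and 1.01 RPKM in LA and 0.299, 0.0337 and 0.135 RPKM in LB (adjusted p = 0.00389). sm2 is not a member of the list of flavonoid and anthocyanin genes. Of the 11 list members tested, 4 rose (whp, c2, UGT708A6 and CGTb) and 0 fell, where 9.49% of all genes were called. The list median was 0.32. The call of CGTb was lost without LA replicate 1 or 2 or LB replicate 1 or 2 (adjusted p up to 0.116). Without LB replicate 2 or LA replicate 1, 2 members remained called, whp and UGT708A6. The later anthocyanin gene dfr1 was not called (adjusted p = 0.445).

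Some superoxide dismutase genes, whose products remove superoxide, were higher in LA. Sod4A (GRMZM2G058522) had 96.3, 98.5 and 83.2 RPKM in LA, against 46.8, 40.4 and 36.5 RPKM in LB (log2 difference 1.16 ± 0.13, adjusted p = 6.89e-05). sod2 had 79.5, 86.7 and 77.7 RPKM in LA and 64.3, 44.5 and 52.4 RPKM in LB (log2 difference 0.61 ± 0.11). sod4 and CSD4 rose too, but both calls were lost without LB replicate 2, at adjusted p = 0.0984 and 0.125, and without LA replicate 2 or 3, and that of CSD4 also without LA replicate 1 or LB replicate 1. sod3, another superoxide dismutase gene, had 54.8, 52.8 and 60.5 RPKM in LA, against 60.2, 50.3 and 62.6 RPKM in LB, with overlap and no call (log2 difference -0.04, adjusted p = 0.859). Sod3.2 (log2 difference -0.36), sod-1a (0.32) and fsd1 (-0.09) were not called either. In all, 4 of 15 antioxidant genes tested rose and 0 fell, where 9.49% of all genes were called. The catalase gene cat1 was not called (adjusted p = 0.086).

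Plastid carotenoid genes included some of the steepest rises. The beta-carotene hydroxylase genes, which make zeaxanthin, were both higher. BCH2 had 15.6, 12.1 and 12.7 RPKM in LA, against 4.45, 1.05 and 2.02 RPKM in LB (log2 difference 2.37 ± 0.34, adjusted p = 0.000693). BCH1 had 7.1, 4.68 and 2.67 RPKM in LA and 0.444, 0.263 and 0.338 RPKM in LB (log2 difference 2.56 ± 0.32). CCD7, a dioxygenase of strigolactone synthesis, was higher at 2.33, 3.96 and 3.27 RPKM in LA, against 0.644, 0.436 and 0.623 RPKM in LB. Of 23 genes of carotenoid and plastid isoprenoid synthesis, 4 rose and 1, VTE2-1, fell, where 9.49% of all genes were called. The list median was 0.20. The call of VTE2-1 was lost without LA replicate 1, 2 or 3 or LB replicate 1 or 2. Without LA replicate 1 or 2 or LB replicate 2, 3 members rose and 0 fell.

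Among auxin genes, 6 of 36 tested rose and 3 fell, where 9.49% of all genes were called. Without LA replicate 1, 2 rose and 1 fell. Without LB replicate 2, 6 rose and 1 fell. Without LA replicate 2, 4 rose and 2 fell. AUX6 had 22.6, 27.7 and 26.9 RPKM in LA, against 9.72, 8.51 and 6.67 RPKM in LB, with no overlap and a log2 difference of 1.58 ± 0.19 (adjusted p = 0.000177). PIN1a, an auxin exporter, had 16.5, 12.9 and 11.1 RPKM in LA and 7.29, 6.69 and 5.22 RPKM in LB, and its adjusted p of 0.00939 became 0.0619 without LA replicate 1. GH3, of the family that conjugates auxin and jasmonate to amino acids, had 18.5, 14.5 and 29 RPKM in LA and 8.9, 3.1 and 1.92 RPKM in LB (log2 difference 2.23 ± 0.49, adjusted p = 0.0115). ARF17, an auxin response factor, fell by 0.87 ± 0.16 on the log2 scale, to 8.86, 8.89 and 9.29 RPKM in LA, against 14.4, 22.9 and 14.4 RPKM in LB.

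MYB-related factors were called in one direction. MYBR41 had 29.4, 18.2 and 22.8 RPKM in LA, against 4.7, 2.29 and 2.74 RPKM in LB (log2 difference 2.71 ± 0.36, adjusted p = 0.000308). RADIALIS had 127, 79.2 and 83.1 RPKM in LA and 39.6, 21.2 and 44.9 RPKM in LB (log2 difference 1.47 ± 0.25, adjusted p = 0.00226). MYBR87 had 8.13, 6.05 and 11 RPKM in LA and 2.49, 1.45 and 2.17 RPKM in LB, a log2 difference of 1.79 ± 0.33 (adjusted p = 0.00395). MYBR47 was near the filter in LA, at 0.542, 1.08 and 1.01 RPKM, and listed at 0 in LB replicates 2 and 3. Its call needed LB replicate 2 (adjusted p = 0.074 without it) and LA replicates 2 and 3. With that call, 4 of 16 members rose and 0 fell, where 4.94% of all genes rose and 4.55% fell. The list median was -0.026. Of the 16 members, 7 had a positive difference, the 4 called among them, and 9 had a negative one. WRKY96 rose to 7.85, 13.1 and 9.03 RPKM in LA, against 2.44, 1.56 and 0.326 RPKM in LB. Of 18 WRKY factors tested, 2 rose and 1, WRKY95, fell, where 9.49% of all genes were called. The rise of WRKY43 was lost without LA replicate 2 or LB replicate 2, and the fall of WRKY95 without any library but LA replicate 2. bZIP61 rose to 5.78, 4.51 and 4.79 RPKM in LA, against 1.29, 0.138 and 0.76 RPKM in LB. It was the 1 bZIP factor of 27 tested that rose, while 3 fell, again beside 9.49% called among all genes. Of these, bZIP45 had 10.9, 17.7 and 11.5 RPKM in LA and 24.6, 38.1 and 20.1 RPKM in LB (log2 difference -1.0, adjusted p = 0.00739). The falls of bZip112 and bZIP113 were lost without LA replicate 1 or 2 or LB replicate 2, bZip112 also without LB replicate 3 and bZIP113 also without LA replicate 3.

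Genes of DNA and chromatin supply were mostly higher in LA among those called. RNRS1, a small subunit of ribonucleotide reductase, which makes deoxynucleotides, had 17.0, 15.4 and 20 RPKM in LA and 9.12, 5.85 and 9.03 RPKM in LB (log2 difference 1.1 ± 0.16, adjusted p = 0.000676). RNRS2 and the histone gene his2a1 also rose, by 0.57 and 0.83 on the log2 scale. cyclin4 fell by 0.77, to 13.7 to 16.3 RPKM in LA, against 22.3 to 34.1 RPKM in LB. The histone gene H3C2 lay at the threshold and was lost without any of the 6 libraries. With it, 4 of 21 genes of this list rose and 1 fell, where 9.49% of all genes were called. PCNA (adjusted p = 0.615) and cdc2 (adjusted p = 0.283), genes of dividing cells, were not called.

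Members of the jasmonate list, which was matched by symbol, were called in both directions, 5 of 37 rising and 4 falling, where 9.49% of all genes were called. Without LB replicate 2, and likewise without LA replicate 1, 2 rose and 1 fell, and without LA replicate 3, 3 rose and 2 fell. lox12, a 9-lipoxygenase, had 10.7, 11.6 and 11.6 RPKM in LA, against 3.36, 4.72 and 5.82 RPKM in LB (log2 difference 1.23 ± 0.20, adjusted p = 0.0016). opr5, of the oxophytodienoate reductase family, fell by 0.88 ± 0.18, to 56.0, 66.1 and 37.6 RPKM in LA, against 101, 111 and 78.8 RPKM in LB (adjusted p = 0.00692). aos1, an allene oxide synthase at the entry of jasmonate synthesis, had 6.05, 21.2 and 10.7 RPKM in LA and 52.2, 51.1 and 35.8 RPKM in LB. Its fall of 1.98 ± 0.47 (adjusted p = 0.0167) was lost when LA replicate 1 or LB replicate 2 was left out (adjusted p up to 0.0987). TIFY25, of the family that holds the repressors of the jasmonate response, rose by 2.28 ± 0.52 and was lost without the same libraries (adjusted p up to 0.0595).

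Further named falls came from defence, metabolism and transport. RIP, a ribosome-inactivating protein, had 16.5, 23.7 and 9.29 RPKM in LA and 67.6, 99.8 and 42.3 RPKM in LB (log2 difference -2.06 ± 0.39, adjusted p = 0.00454). hao1 had 9.2, 8.72 and 9.14 RPKM in LA, against 19.3, 26.7 and 19.4 RPKM in LB (log2 difference -1.21 ± 0.15, adjusted p = 0.000185). The aquaporin gene PIP2-1 had 29.3, 21.3 and 24.3 RPKM in LA and 47.7, 78.0 and 50.6 RPKM in LB (log2 difference -1.20 ± 0.25, adjusted p = 0.00898). ZIP4, of the zinc and iron transporter family, had 20.4, 18.3 and 17.5 RPKM in LA and 33.6, 33.3 and 45.7 RPKM in LB (log2 difference -0.97 ± 0.19). LB replicate 2 was the highest of its group for RIP, hao1 and PIP2-1, and their calls held without it.

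Several other falls lost their call without that library, with smaller differences for some. lkrsdh1, the enzyme that degrades lysine, had 8.29, 11.9 and 10.8 RPKM in LA and 22.8, 46.0 and 18.8 RPKM in LB, and its adjusted p of 0.022 became 0.103 without LB replicate 2, at a log2 difference of -0.99 in place of -1.37. Without LA replicate 1 it was lost too. SH-1, a sucrose synthase, had 18.8, 27.4 and 16.4 RPKM in LA and 45.1, 81.5 and 29.1 RPKM in LB, and its adjusted p of 0.0148 became 0.0604, at a log2 difference of -0.82 in place of -1.20, with the call also lost without LA replicate 1 or 3. Of 23 potassium transporter genes tested, 5 fell and 0 rose with all libraries, where 9.49% of all genes were called. Among the 5 were HAK1 (log2 difference -1.18, adjusted p = 0.0287) and HAK18 (log2 difference -0.77, adjusted p = 0.0141). The call of HAK1 was also lost without LA replicate 1 or 3 or LB replicate 1. Without LB replicate 2, 0 of the 23 were called, although the difference of HAK1 stayed at -1.19, while that of HAK18 was -0.52. The count was 1 without LA replicate 1, 2 without LA replicate 3 and 3 without LB replicate 3. TMT, a vacuolar sugar transporter, rose to 288, 248 and 248 RPKM in LA, against 159, 130 and 168 RPKM in LB (log2 difference 0.78 ± 0.15, adjusted p = 0.00537), a call kept without any 1 library. Of 15 sugar transport and phloem loading genes tested, TMT alone rose and 2, sfp5 and sfp7, fell, where 9.49% of all genes were called. Of the 15, 13 had a negative difference, and the list median was -0.18. Both falls were lost without LA replicate 1 or LB replicate 2, sfp5 also without LA replicate 3 and sfp7 without LB replicate 1.

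**Figure D4:**
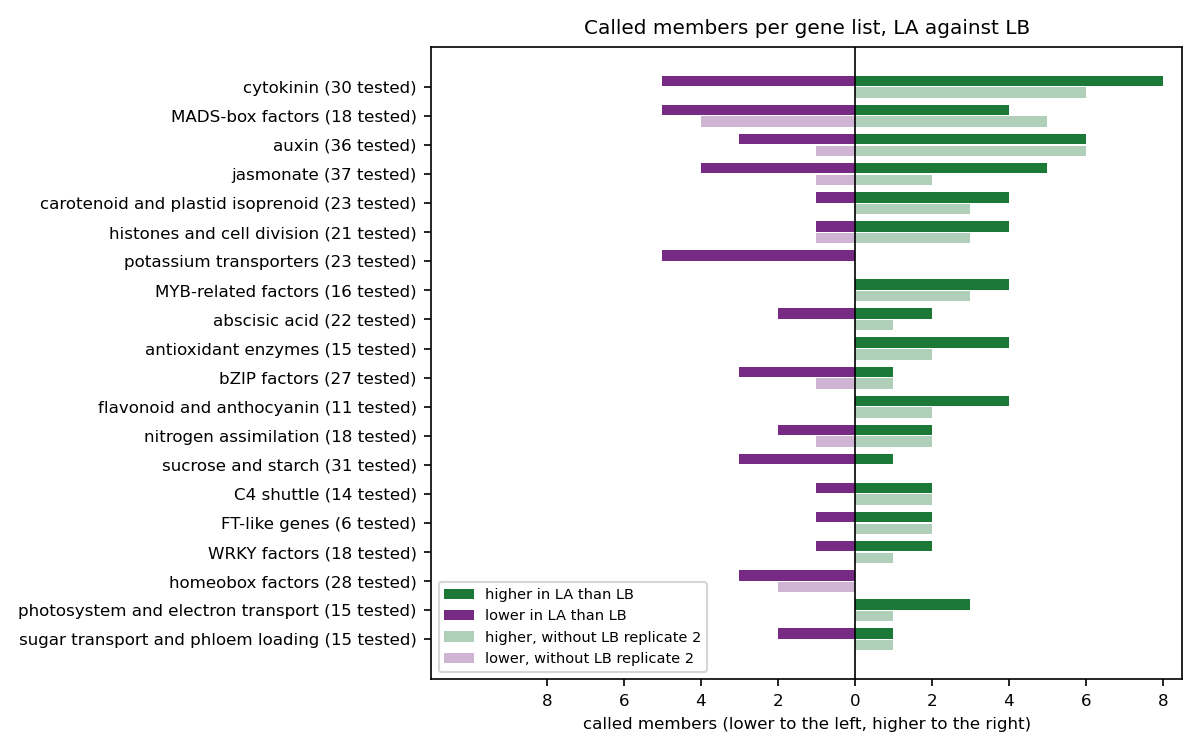
Bars to the right count members called higher in LA than in LB and bars to the left members called lower, for the 20 gene lists with at least 3 called members; pale bars give the counts without LB replicate 2. Potassium transporters, cytokinin falls and sucrose and starch lose their calls without that library, while the MADS-box calls number 9 in both. With all 6 libraries, 9.49% of all genes were called.

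Over 5 lists of photosynthesis genes, 8 of 81 genes tested were called (9.88%), beside 9.49% of all genes. pep1, the C4 carboxylase, had 6486.2, 4658.7 and 6016.1 RPKM in LA, against 3881.4, 2062.6 and 5263.9 RPKM in LB. LB replicate 3 lay within the range of LA, LB replicate 2 was lowest, and the log2 difference of 0.70 ± 0.32 was not called (adjusted p = 0.168). Without LB replicate 2 it was 0.33. Of 15 photosystem and electron transport genes, 3 rose (PGR5 GRMZM2G017045, L-FNRII and FDX6) and 0 fell, and none of these calls held without LA replicate 1. Those of FDX6 and L-FNRII were also lost without LB replicate 1 or 2 and without a second LA library. Their list median of 0.61 became 0.19 without LB replicate 2, where 1 member was called. None of 10 Calvin cycle and Rubisco genes was called by limma. The small subunit genes rbcS were at 86.3 to 180 RPKM in LA and 195 to 288 RPKM in LB for GRMZM2G098520 (adjusted p = 0.0895), and at 219 to 476 RPKM in LA and 392 to 711 RPKM in LB for GRMZM2G113033 (adjusted p = 0.168). These gene models share a name and may share reads.

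Of 14 genes of the C4 shuttle tested, 2 regulators rose and 1 enzyme fell, where 9.49% of all genes were called. PPCK3 and PPCK1, of the family of phosphoenolpyruvate carboxylase kinases, had 21.1, 19.6 and 15.7 RPKM and 6.93, 5.08 and 9.85 RPKM in LA. In LB they had 5.97, 6.75 and 8.15 RPKM and 1.97, 1.91 and 1.43 RPKM, giving log2 differences of 1.37 ± 0.27 (adjusted p = 0.00597) and 1.74 ± 0.39 (adjusted p = 0.0114). ME1, the malic enzyme that releases carbon dioxide in the bundle sheath, had 585, 326 and 466 RPKM in LA and 904, 892 and 878 RPKM in LB (log2 difference -1.0 ± 0.24, adjusted p = 0.0186). The fall was as large without LB replicate 2 (log2 difference -1.0) but missed the threshold (adjusted p = 0.0517), as it did without LA replicate 2. The 7 gene models of the bundle sheath marker list, ME1 and rbcS included, summed to 905 to 1661.9 RPKM in LA and 1966.5 to 2386.2 RPKM in LB, without overlap. Only ME1 of the 7 was called, and none was at 0. Whether the ratio of bundle sheath to mesophyll RNA had a part in these values was not tested.

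The fixed genes SGR2, ICL and LIP, which are linked to senescence, were not called between the upper and lower leaf of this stand. SGR2, a stay-green factor that starts chlorophyll breakdown, had 4.7, 4.08 and 4.32 RPKM in LA and 6.44, 7.63 and 4.2 RPKM in LB (adjusted p = 0.361). ICL, isocitrate lyase of the glyoxylate cycle, did not exceed 0.229 RPKM in LA or 0.458 RPKM in LB and was listed at 0 in LA replicates 1 and 3. LIP stayed at or under 0.0898 RPKM in LA and 0.503 RPKM in LB. Of 7 genes of the glyoxylate cycle and beta-oxidation tested, 6 had a negative difference, with a list median of -0.34. LC-FACS of that list was called lower (log2 difference -0.51, adjusted p = 0.0221), a call lost without LA replicate 1 or LB replicate 1 or 2. Of 9 protease and senescence genes tested, none was called in limma, although 8 had a negative difference, with a list median of -0.40. Of the 9, 4 (ccp1, ccp2, vignain and SLP3) had all LA libraries below all LB libraries and 1, mir3, had all above. The highest levels among the 4 were those of ccp1, at 2057.1 to 2625.9 RPKM in LA and 3177.5 to 3327.7 RPKM in LB (adjusted p = 0.126), and of ccp2, at 1501.4 to 1612.9 RPKM in LA and 1900.8 to 2189.3 RPKM in LB (adjusted p = 0.184). Of all genes tested, 25.1% had libraries of LA and LB that did not overlap. All 13 autophagy genes had a lower mean in LA. Where 9.49% of all genes were called, 2 of the 13 were, Atg4b and Atg8c, and 0 without LB replicate 2. Both calls were also lost without LA replicate 1.

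Among genes of phytochromes and light signalling, PIF5, a phytochrome-interacting factor, fell by 0.90 ± 0.17, to 5.0, 4.51 and 3.11 RPKM in LA, against 6.93, 10.1 and 7.76 RPKM in LB (adjusted p = 0.00386). The blue-light receptor gene nph1 had 212, 234 and 225 RPKM in LA and 270, 411 and 309 RPKM in LB (adjusted p = 0.0274), a call lost without LB replicate 2 (adjusted p = 0.105) or LA replicates 1 or 3. PHYB, phytochrome B, had 27.4, 44.3 and 37.2 RPKM in LA and 46.6, 70.4 and 47.9 RPKM in LB, a log2 difference of -0.59 that was not called (adjusted p = 0.103). In all, 2 of 7 phytochrome and light signalling genes tested fell and 0 rose, where 9.49% of all genes were called. Among the 7 was the homeobox gene gt1, with at most 0.271 RPKM in LA and 0.426 RPKM in LB. The list median was -0.54.

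The ear leaf lies between these leaves on the stem. LA against LE and LE against LB share the LE libraries, so their values are given side by side. Between LA and LE, 1215 genes (5.74%) were called, and between LE and LB, 61 (0.288%). Both counts moved with single libraries. LA against LE gave 111, 465 and 460 genes when LE replicates 1, 2 and 3 were left out in turn, and 128 when LA replicate 1 was. LE against LB gave 30, 89 and 23 genes without LE replicates 1, 2 and 3, and 34 without LB replicate 3. For 823 of the 1047 genes higher in LA the ear leaf mean lay between the leaves, and the median difference was 0.72 between LA and LE and 0.27 between LE and LB. For 826 of the 963 lower genes it also lay between, with medians of -0.41 and -0.28. These genes were chosen by LA against LB in the same data, which favours a mean between the leaves. The counts are therefore no test of a gradient. NNR1 had the larger step between LA and LE, with 54.2, 50.5 and 54.0 RPKM in LA, 18, 24.7 and 22.3 RPKM in LE and 20.9, 13.9 and 18.9 RPKM in LB. m15 and m4 had the larger step between LE and LB. m4 had 51.0, 87.0 and 63.9 RPKM in LE, near its level in LA, and differed from LB by 4.72 (adjusted p = 2.2e-07). m15 had 15.9, 30.9 and 35.9 RPKM in LE and differed from LB by 4.53 (adjusted p = 2.51e-08). All 3 LE libraries lay below the LA libraries, by a log2 difference of 0.96 between LA and LE (adjusted p = 0.0319). ZCN8, Sod4A, ZIP4, hao1 and MYBR87 were also called between LE and LB. In the ear leaf zap1, at 2.84, 3.78 and 4.19 RPKM, and m20, at 27.7, 32.8 and 23.4 RPKM, lay nearer to LB than to LA.

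The same contrast in the H stand took its means from no library of LA or LB. Both contrasts share the spread estimated over all 18 libraries, so their calls are not independent. HA against HB gave 9308 called genes (43.9%), of which 35.4% were higher in HA. Of all genes tested, 15.5% were higher and 28.4% lower in HA. Median-ratio rescaling moved that share to 50.4% and the median of all genes from -0.151 to -0.005. Across the 21184 genes the differences correlated at a Pearson r of 0.644 and a Spearman rho of 0.585, a description over genes, which are not independent. Of the 2010 genes called between LA and LB, 1531 were also called between HA and HB, 1510 of them in the same direction. These are 76.2% of the LA and LB calls and 16.4% of the HA and HB calls. The median absolute difference was 0.235 between LA and LB and 0.388 between HA and HB.

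A test of the difference between the spans called 2409 genes (11.4%), 6.27% with a positive and 5.1% with a negative value, 308 of them also called between LA and LB. The share with a positive value was 55.1%, and 41.3% after quantile normalization. The MADS-box genes with the largest changes had spans of the same sign in both stands. m15 had 55.2, 51.7 and 53.6 RPKM in HA and 0.938, 0.796 and 0.945 RPKM in HB, and its span difference was not called (adjusted p = 0.757). Those of m20, m5, m21 and zap1 were not called either (adjusted p = 0.37, 0.466, 0.293 and 0.863). The span of m4 was larger in the L stand by 1.55 (adjusted p = 0.0268), with 73.6, 110.0 and 86.3 RPKM in HA and 14.1, 4.75 and 6.74 RPKM in HB. ZCN8 had a smaller span in the L stand, by 1.81 on the log2 scale (adjusted p = 0.0122), with 55.8, 55.9 and 87.4 RPKM in HA and 4.92, 2.18 and 4.72 RPKM in HB. GH3, called between LA and LB, was not called between HA and HB (adjusted p = 0.418), with 23.0, 20.1 and 19.5 RPKM in HA and 41.7, 24.8 and 26.2 RPKM in HB (span difference 2.75, adjusted p = 0.0202).

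Called span differences of both signs included photosynthesis and senescence genes. pep1 had 4703.6, 4746.8 and 5513.3 RPKM in HA and 618, 461 and 374 RPKM in HB, and its span was smaller in the L stand (span difference -2.69 ± 0.46, adjusted p = 0.00278). ICL was listed at 0 in all 3 HA libraries and had 73.1, 190.0 and 344 RPKM in HB, while LIP had at most 0.154 RPKM in HA and 76.1, 124 and 201 RPKM in HB. The span differences were positive and called for ICL (8.09, adjusted p = 5.31e-07), LIP (7.27, adjusted p = 4.43e-08) and SGR2 (3.24, adjusted p = 0.000325). SGR2 had 3.8, 3.16 and 2.6 RPKM in HA and 36.7, 39.7 and 62.7 RPKM in HB. Of 36 genes of photosystem assembly and plastid targeting, 1, CRS2, was called higher in LA than in LB. That call was lost without LA replicate 1 or 3 or LB replicate 1 or 2. In HA, 32 were higher and 2 lower than in HB. Of all genes, 4.94% were higher in LA, and 15.5% were higher and 28.4% lower in HA. The span difference was called negative for 20 of the 36 and positive for 1, where 5.1% of all genes were negative and 6.27% positive. RADIALIS and MYBR87, called in both stands, differed in size: RADIALIS had 166, 167 and 228 RPKM in HA and 9.22, 6.76 and 6.13 RPKM in HB (span difference -3.10 ± 0.36, adjusted p = 0.000215).

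**Figure D5:**
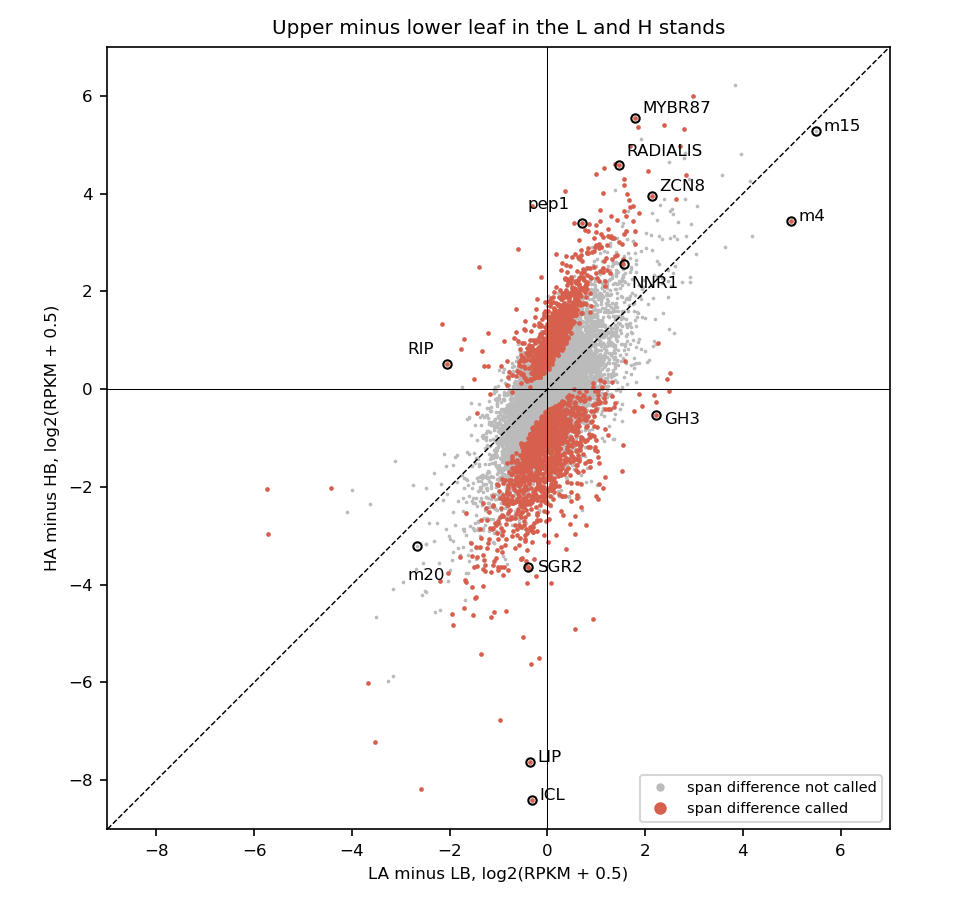
Each point is 1 of 21184 genes, with the log2(RPKM + 0.5) difference LA minus LB on the horizontal axis and HA minus HB on the vertical axis; red points have a called span difference, the dashed line marks equal spans, and circled genes are named. m15 and m20 lie close to the line, while ICL, LIP and SGR2 lie near 0 on the horizontal axis and far below 0 on the vertical axis.

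Some of the largest changes were in gene models without a name, picked here after their values were seen. GRMZM2G064096 had 182, 142 and 181 RPKM in LA and 10.2, 12.1 and 5.41 RPKM in LB, with 54.1, 69.2 and 97.9 RPKM in the ear leaf between (log2 difference 4.18 ± 0.33, adjusted p = 1.87e-06). GRMZM2G322819 had 0.427, 2.55 and 0.228 RPKM in LA and 73.4, 39.0 and 104 RPKM in LB, a fall of 5.73 ± 0.50 on the log2 scale (adjusted p = 7.65e-06). GRMZM2G110369 was listed at 0 in LA replicates 1 and 3, had 0.315 RPKM in LA replicate 2 and 39.8, 17.6 and 39.9 RPKM in LB. In the H stand, GRMZM2G322819 had 1.58, 3.39 and 0.863 RPKM in HA and 8.58, 9.01 and 8.32 RPKM in HB. GRMZM2G110369 had at most 0.155 RPKM in HA and 2.39, 3.52 and 7.66 RPKM in HB. The fall was larger in the L stand for both (adjusted p = 0.00495 and 0.00913 for the span difference).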

How the data were processed

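Per the labels' protocols, total leaf RNA (Trizol-type extraction) went into NEBNext Ultra libraries for Illumina sequencing. Per the submitters' processing notes, the tools were Trimmomatic 0.35, HISAT 0.1.6 and HTSeq 0.6.1 with the build B73 RefGen_v3. The authors deposited RPKM values per gene model and library. The RPKM formula, gene lengths and strandedness are not given in the sources used here, so overlapping and antisense genes cannot be told apart.

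The model was limma's (3.58.1, R 4.3.3) on log2(RPKM + 0.5), over all 18 libraries, 1 mean per group and an intensity trend. A gene entered it with 1 RPKM or more in 3 libraries or more. Tests were 2-sided, p-values were adjusted by Benjamini-Hochberg over all genes tested, and an adjusted p under 0.05 was called. The span difference is (LA minus LB) minus (HA minus HB). On simulated data for LA against LB, with 200 of 21184 genes changed, 73.08% were recovered at a log2 change of 1 and 94.79% at 2, with 9 false calls among 176. The simulated noise was normal and independent, with 1 spread per gene shared by all groups. It held no wider group and no library that stood apart, so it does not give the share of false calls in the real data.

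Names are those of RefSeq for Zm-B73-REFERENCE-NAM-5.0, another build, so no positions are given. It matched 17838 gene models and named 2486. A rule picked the 15 largest named rises and falls with a mean of at least 5 RPKM and no overlap. It also picked up to 4 called members of each of 62 lists, the 6 largest named span differences and some fixed genes. The text names only part of what the rule picked, and ABP1 and HB112 are among the genes left out. List members named beyond the rule, and genes not called, were added after their values were seen. Members and lists were chosen with earlier results of these data known, and the lists were matched by symbol. Replicate numbers did not pair LA with LB: correlations of same-numbered deviations were -0.161, 0.147 and 0.043. Alternatives were other pseudocounts, filters, scalings, only the groups compared, a replicate block and leaving out each library.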

Additional observations from a re-analysis of the deposited data

Results flagged for a closer look

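The results here are those for which the span from upper to lower leaf differed between the stands in the test of that difference, (LA minus LB) minus (HA minus HB), on the log2 scale. The test called 2409 genes. It was 3772 without LB replicate 2 and 1155 without LA replicate 2, so the count depends on single libraries. Among named genes, the glyoxylate cycle gene ICL (8.09) and LIP (7.27) gave the largest values, followed by ALDH12 (5.79), CBL10 (4.06) and SGR2 (3.24). These 5 genes had called falls in HA against HB and none in LA against LB. Some span differences listed below lay near the threshold in limma, as for RR7 (adjusted p = 0.0439), SH-1 (0.0409), NIR (0.039) and myb39 (0.0368). The losses of a call given below are those of LA against LB. They do not show how the span difference of a gene depends on single libraries.

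The span was smaller in the L stand, with a rise in both stands, for MYBR87 (-3.75), MYBR47 (-3.23), RADIALIS (-3.1), MYBR41 (-2.27), ZCN7 (-1.83), ZCN8 (-1.81), NIR (-1.04), NNR1 (-1.01), RR7 (-0.93), RR6 (-1.53), m31 (-1.25), L-FNRII (-1.3) and CRS2 (-0.87). The call of CRS2 between LA and LB did not survive leaving out LA replicate 1 or 3 or LB replicate 1 or 2 (highest adjusted p = 0.193). pep1 (-2.69) and RR4 (-1.03) were called in the H stand and not in the L stand, and HK1b2 (-0.59) the other way round. Falls were smaller in the L stand for AUX10 (1.73), lkrsdh1 (1.68), SH-1 (1.32), NAC61 (1.08) and VTE2-1 (0.85). The LA against LB call of AUX10 was lost without LA replicate 1 or LB replicate 2 (highest adjusted p = 0.0595). NAC61 lost its call without LA replicate 1 or 3 or LB replicate 1 or 2 (highest adjusted p = 0.146).

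The opposite order was met for m4 (1.55), which rose more in the L stand, and for the unnamed models GRMZM2G322819 (-3.69) and GRMZM2G110369 (-2.74), which fell more there. RIP (-2.58) and AAMT2 (-1.78) fell in LA against LB and had positive differences of 0.52 and 0.48 between HA and HB. GH3 (2.75), WRKY43 (1.9) and myb39 (1.74) rose in LA against LB and had negative differences between HA and HB, of -0.52, -0.95 and -0.37. The rise of WRKY43 was lost without LA replicate 2 or LB replicate 2 (highest adjusted p = 0.091). myb39 lost its call without LA replicate 1, 2 or 3 or LB replicate 2 (highest adjusted p = 0.109). With 3 libraries a group, no single library was tested for standing apart within its group. The part of the label conflict of LA, or of LB replicate 2, in these differences was not tested.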

How the results depend on the processing

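The sign of LA against LB did not change in any alternative run for the 121 called genes picked by the rule. Of them, 56 were called whichever library was left out. Other pseudocounts left 119 called each, median-ratio rescaling 110, quantile normalization 112, and LA and LB fitted alone 56. The counts of all 5 comparisons stayed within 1.5 times of the main count under both pseudocounts, no filter, the stricter filter and both scalings. With only the groups compared, LA against LB gave 430 genes, HA against HB 8694, the span difference 1475, LA against LE 977 and LE against LB 19. Leaving out each library gave 665 to 2402 genes for LA against LB, 7459 to 8759 for HA against HB, 1155 to 3772 for the span difference, 111 to 891 for LA against LE and 23 to 89 for LE against LB. Fits with fewer libraries have fewer residual degrees of freedom, 4 in place of 12 for LA and LB, HA and HB, or LA and LE fitted alone. The median SD of the log2 values was 0.246 in LB and 0.133 to 0.188 in the other groups. What moved the counts was not tested.

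Replicate numbers did not pair the samples. With them as a replicate block, LA against LB gave 2954 genes, the span difference 3121, LA against LE 2320 and LE against LB 195. Of the 121 genes, 120 stayed called under the block. Absolute depth is unknown, so differences of genes near 0 RPKM carry no counting interval.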
